A study of Rattus norvegicus with 9 samples.

Results

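The genes described here encode the subunits of the voltage-gated calcium channels, the voltage-gated sodium channels and the HCN channels, measured in dendrites of cultured rat hippocampal neurons. They were chosen by name. A gene entered if the platform's gene table gave a probe set that gene alone and its symbol began with Cacna1, Cacna2d, Cacnb or Hcn with a subunit number, or with Scn, a number and the letter a or b. The gamma subunits (Cacng) were not counted as members. The rule found 31 genes with 46 probe sets, among 14217 genes on the array. The members were 10 pore subunits of calcium channels, 2 alpha2delta and 4 beta subunits that sit beside those pores, 9 pore subunits and 3 beta subunits of sodium channels, and 3 HCN channels.

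The neurons came from Sprague-Dawley rats at embryonic day 19 and were cultured for 14 days with no treatment, after which their dendrites were severed and pooled. The pools held 100, 200 or 400 dendrites, with 3 arrays for each pool size and 9 arrays in all, and all of them shared strain, age and culture. The labels call the cells pyramidal neurons, and the study states that axons could not be told from dendrites by shape and that a small part of the RNA is axonal. The study adds that RNA of the cell body may also be present in the dendrite samples. The labels call the arrays of a pool size biological replicates. They do not say whether the pools came from separate cultures, so the p values below measure the spread between these pools.

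Voltage-gated channels open or close as the membrane potential changes. Sodium channels carry the upstroke of the action potential, calcium channels let in the calcium that drives transmitter release, gene expression and plasticity, and HCN channels open on hyperpolarization and set the resting properties of dendrites. A pore subunit conducts the ions, while the auxiliary beta and alpha2delta subunits govern how many channels reach the membrane and how they gate. In hippocampal pyramidal neurons all of these families are known to work in dendrites, where they shape the signals that synapses produce.

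The values are log2 signals of probe sets after RMA, a procedure that puts all arrays on 1 distribution. A gene's value is the median of its probe sets. Because each probe binds its target with its own strength, the signal of one gene is not an amount of RNA that can be set against another, and the percentiles below are ranks of signal among the 14217 genes, taken as the median over the 9 arrays. A percentile of 50 is the middle gene, and the top 5% held 711 genes. In a pool, fewer dendrites that carry a transcript and less of it per dendrite cannot be told apart.

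The channels covered nearly the whole range of signal. Only Cacna1g and Hcn3 lay in the top 5%, which is 2 of 31 members or 6.45%, beside 5.00% of all genes by construction and 3 of the 75 potassium channel genes. The median member lay at percentile 58.8 and the median potassium channel at 58.3. Above the middle gene were 18 of 31 members, and 11 lay above percentile 75. On all 9 arrays, 9 members stayed above the middle gene, Cacna2d1, Cacna1h and Cacna1d stayed below it, and the other 19 were found on both sides.

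**Figure D1:**
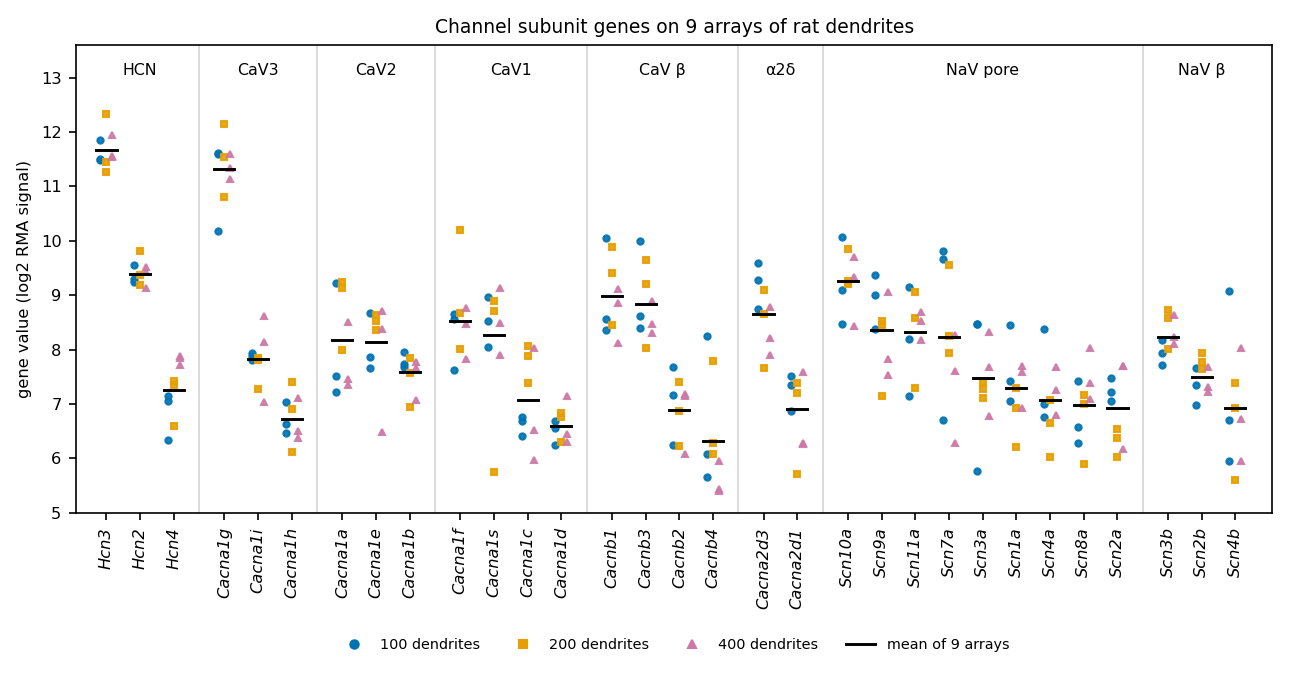
Gene values of the 31 channel genes, as log2 RMA signal, for each of the 9 arrays. Points are arrays, coloured and shaped by the number of dendrites in the pool, bars are means of 9 arrays, and genes are grouped by the role of the subunit. Hcn3 and Cacna1g stand above the other members, and for most genes the 3 pool sizes lie over each other.

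HCN channels were among the members of highest signal. Hcn3, an HCN channel that cyclic AMP hardly affects, had values of 11.86, 11.51 and 11.48 in replicates 1, 2 and 3 of 100 dendrites, 11.27, 11.45 and 12.34 in those of 200, and 11.96, 11.56 and 11.55 in those of 400. Its mean was 11.66 ± 0.33 (SD, n = 9), at percentile 98.4, and it ranked above percentile 97.8 on every array. Hcn2, the form that responds strongly to cyclic AMP, had 9.55, 9.25 and 9.30 with 100 dendrites, 9.81, 9.38 and 9.19 with 200, and 9.13, 9.42 and 9.51 with 400. Its mean of 9.39 ± 0.21 placed it at percentile 89.5. Hcn2 had the smallest spread of any member, and its SD was at percentile 2.0 of the SDs of all genes. Hcn4, the pacemaker channel of the heart, which the brain also uses, lay at percentile 42.8 with a mean of 7.26 ± 0.54.

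Of the T-type (CaV3) calcium channels, which open near the resting potential, Cacna1g was the member of highest rank. Its values were 10.18, 11.61 and 11.60 with 100 dendrites, 11.53, 12.15 and 10.81 with 200, and 11.60, 11.33 and 11.14 with 400. The mean was 11.33 ± 0.57 at percentile 98.6, and replicate 1 of 100 dendrites was the lowest array, at percentile 94.3 there. Cacna1g and Hcn3 could not be ordered, since their means lay closer than their spread. The lowest array percentile of either was above the highest of Hcn2, 92.4. The other T-type genes ranked lower, Cacna1i at percentile 58.8 (7.82 ± 0.46) and Cacna1h at 22.0 (6.73 ± 0.41).

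The place of Cacna1g rests on how a probe set is named. The platform gives Cacna1h 2 probe sets, and one of them, of mean 6.20, carries a RefSeq accession that belongs to Cacna1g. Counted as Cacna1g, that probe set lowers the gene to percentile 79.1, raises Cacna1h to 39.9, and leaves Hcn3 as the 1 member in the top 5%. This setting was chosen after the values were seen. Of the 46 member probe sets, the accession named the same gene in 14, another gene in this 1, and was not listed in 31.

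The 3 pores of the CaV2 family, which serve transmitter release at axon terminals and also occur on dendrites, all lay above the middle gene. The R-type channel Cacna1e was at percentile 73.4 (8.14 ± 0.72), the P/Q-type channel Cacna1a at 63.4 (8.18 ± 0.85) and the N-type channel Cacna1b at 53.4 (7.58 ± 0.34).

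The L-type (CaV1) channels, which link depolarization to gene expression, fell into 2 pairs by the median of their probe sets. The pair best known outside the brain had the higher ranks, with Cacna1f of the retina at percentile 79.0 (8.53 ± 0.75) and Cacna1s of skeletal muscle at 77.5. Cacna1s had 8.04, 8.53 and 8.97 with 100 dendrites, 5.76, 8.71 and 8.88 with 200, and 9.13, 7.90 and 8.49 with 400. Its SD of 1.03 came largely from replicate 1 of 200 dendrites, which was at percentile 7.41 while its highest array was at 85.9. The L-type channels usual in the brain were low, Cacna1c at percentile 25.1 (7.08 ± 0.78) and Cacna1d at 20.2. Cacna1d had 6.57, 6.69 and 6.25 with 100 dendrites, 6.30, 6.84 and 6.76 with 200, and 7.15, 6.45 and 6.30 with 400, and never ranked above percentile 37.5. The pairs rest on the probe sets taken, since from its probe set of highest mean Cacna1d lay at percentile 86.3, above Cacna1f at 70.4 and Cacna1s at 68.3.

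Auxiliary calcium channel subunits were spread as widely as the pores. Among the beta subunits, which bring pores to the membrane, Cacnb1 was at percentile 83.7 (8.98 ± 0.68), Cacnb3 at 79.2 (8.84 ± 0.66) and Cacnb2 at 36.1 (6.89 ± 0.57). Cacnb4, the beta subunit mutated in the lethargic mouse, was the lowest of all members, at percentile 9.67. It had 8.24, 5.66 and 6.09 with 100 dendrites, 7.79, 6.09 and 6.28 with 200, and 5.40, 5.96 and 5.44 with 400. Replicate 1 of 100 and replicate 1 of 200 dendrites stood well above the other 7 arrays. Of the alpha2delta subunits, to which gabapentin-type drugs bind in some forms, Cacna2d3 was at percentile 81.3 (8.66 ± 0.64) and Cacna2d1 at 38.1 (6.91 ± 0.67).

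Among the sodium channel pores, those of peripheral sensory neurons ranked above the main channels of the brain. Scn10a, a channel of pain-sensing neurons, had 10.06, 9.10 and 8.47 with 100 dendrites, 9.26, 9.85 and 9.21 with 200, and 8.43, 9.34 and 9.70 with 400. Its mean of 9.27 ± 0.56 was at percentile 88.9, and all 9 arrays had it above the middle gene. Scn11a, of the same kind of neuron, was at percentile 76.8 (8.32 ± 0.70), and Scn9a, whose loss abolishes pain, at 75.2 (8.36 ± 0.74). The channels that carry most sodium current in central neurons lay lower. Scn1a of fast-spiking interneurons was at percentile 41.2 (7.29 ± 0.62), Scn8a of the axon initial segment at 34.9 (6.98 ± 0.65), Scn2a at 33.1 (6.92 ± 0.65), and Scn3a, an early developmental form, at 44.3 (7.47 ± 0.89). Scn4a of skeletal muscle was at percentile 31.9 (7.07 ± 0.67).

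Scn7a, a sodium-sensing channel that is not opened by voltage in the usual way, varied most. It had 9.81, 6.70 and 9.67 with 100 dendrites, 8.25, 9.56 and 7.93 with 200, and 6.27, 8.26 and 7.61 with 400. The SD was 1.27, above the SDs of 98.3% of genes, and the array percentiles ran from 16 to 92.2. Arrays of the same pool size lay almost as far apart as arrays of different sizes.

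The sodium channel beta subunits, small membrane proteins that modulate gating and adhesion, lay at percentile 67.4 for Scn3b (8.23 ± 0.35), 52.1 for Scn2b (7.50 ± 0.31) and 23.8 for Scn4b. Scn4b had 9.09, 5.95 and 6.71 with 100 dendrites, 7.39, 6.92 and 5.61 with 200, and 5.95, 8.03 and 6.72 with 400, with an SD of 1.11. Its highest and lowest arrays were 3.48 apart on the log2 scale, a gap almost as wide as that of Scn7a.

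By tissue rather than by family, 7 members were listed as best known outside the brain, namely Cacna1s, Cacna1f, Scn4a, Scn7a, Scn9a, Scn10a and Scn11a. Of these, 6 lay above the middle gene and their median percentile was 76.8. Of the other 24 members, 12 lay above it, and their median was 48.2. With Hcn4 of the heart counted in the list too, 6 of 8 lay above the middle gene with a median of 76.0, beside 12 of 23 and 52.1. From the probe set of highest mean of each gene the medians were 67.8 for the 7 and 50.7 for the 24. Both settings were added after the values were seen, and the list of 7 was itself chosen with earlier results of these data known. The same ranks were read for 42 genes of other organs, such as pancreas, liver, testis and pituitary, as a background for signal that is not expected in neurons. Their median was percentile 31.9, but 14 of the 42 lay above the middle gene. The highest, the pancreatic protease gene Ctrb1, was at 98.0. The mark of percentile 81.7 was set as the 90th percentile of these 42 genes, so 5 of them lay above it by construction. Among the members, 5 (Cacna1g, Hcn3, Hcn2, Scn10a and Cacnb1) lay above percentile 81.7, where 18.3% of all genes did, and 2 (Cacna1g and Hcn3) above every gene of that background. A percentile up to 98.0 is thus one that genes of other organs also reached. Of 4 endothelial markers, which were not part of that background, 1 lay higher still. This was Vwf, at percentile 99.8, above both Cacna1g and Hcn3. These lists were compared by count and median, with no test.

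**Figure D2:**
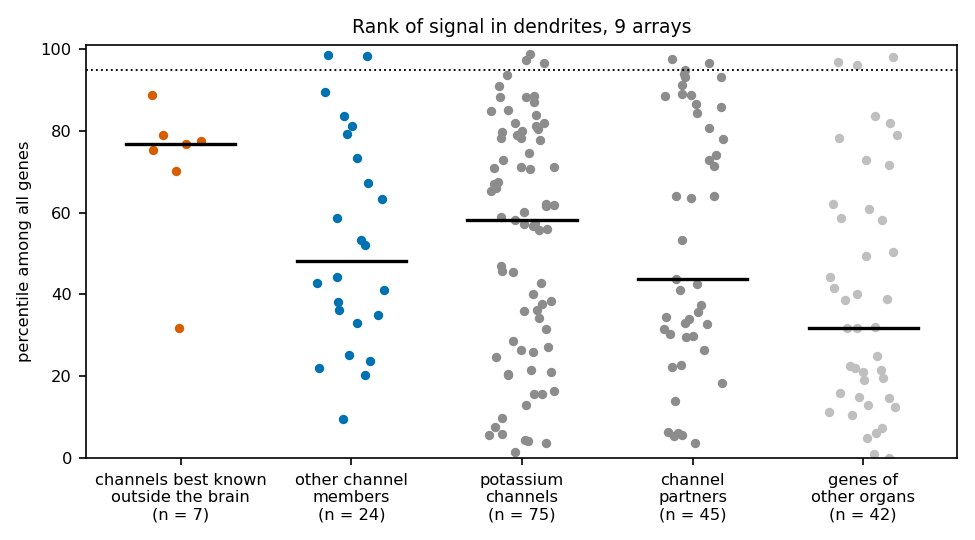
Percentile of each gene's signal among all genes, over 9 arrays, for the 7 members best known outside the brain, the other 24 members, 75 potassium channel genes, 45 channel partners and 42 genes of other organs. Points are genes, bars are medians, and the dotted line marks the top 5%. The members best known outside the brain have a median of 76.8, and the genes of other organs reach as high as 98.0.

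The start regions of the members were read in the same way. RefSeq gave a window of 250 bases before the gene start, on assembly GRCr8, for 22 of the 31 members, and the number of CG pairs in it was counted, with the highest number taken where a gene had several of the 25 windows. A high number marks the CpG-island promoters that broadly used genes tend to have. The 7 members best known outside the brain held 1 to 11 CG pairs with a median of 4, while the other 15 held 1 to 56 with a median of 28, and 10 of those 15 had more than 11. In all 33469 windows the median was 5, and 31.5% had more than 11. The letters GGGCGG, the core of the GC box that SP1-type factors bind, stood on either strand in 11 of 22 members and in 30.5% of all windows, with 2 of the 7 and 9 of the other 15 among them. TATAAA, searched on either strand too, stood in Cacna1s alone of the members and in 12.9% of all windows. A match gives letters only, not binding. The 12 members with up to 11 CG pairs had a median percentile of 71.9, with 8 of 12 above the middle gene, and the 10 with more had 45.7, with 5 of 10 above it. All 7 members best known outside the brain were among the 12, because 11 was their highest count. The split by CG pairs thus partly repeats the one by tissue. The rest of the 12 were Cacna1c, Cacna1e, Scn2a, Scn2b and Scn3a. They lay at percentiles 25.1, 73.4, 33.1, 52.1 and 44.3. The mark of 11 was set with the values in view, and no test was made.

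Cacnb3 and Cacna1f, neighbours in rank at percentiles 79.2 and 79.0, show how unlike the start regions of members of like signal can be. The window of Cacnb3 has 35 CG pairs and lies on the plus strand at chr7:131666301-131666550, and that of Cacna1f has 5 and lies on the minus strand at chrX:17568309-17568558, both GRCr8. Each runs 5′ to 3′ toward the gene start, with the CG pairs in capitals.
Cacnb3: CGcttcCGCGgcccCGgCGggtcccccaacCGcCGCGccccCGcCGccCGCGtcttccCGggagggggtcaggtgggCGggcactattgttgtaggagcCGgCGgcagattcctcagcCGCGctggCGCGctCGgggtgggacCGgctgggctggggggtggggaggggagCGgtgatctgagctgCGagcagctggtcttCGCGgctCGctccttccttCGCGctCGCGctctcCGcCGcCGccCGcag
Cacna1f: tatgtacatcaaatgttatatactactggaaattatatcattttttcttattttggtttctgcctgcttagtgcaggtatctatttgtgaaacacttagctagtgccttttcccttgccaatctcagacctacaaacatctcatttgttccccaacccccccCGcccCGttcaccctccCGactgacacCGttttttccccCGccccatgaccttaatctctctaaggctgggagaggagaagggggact

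In some members the probe set means lay further apart than the highest and lowest array of the gene value. For Cacna1a the 2 spans were 3.41 and 2.02, and for Cacna1d 3.31 and 0.90. In others the arrays lay further apart, as in Cacnb1 with 0.86 and 1.93 and Cacna1c with 0.24 and 2.10. Of the members, 10 had more than 1 probe set. Cacna1a had 5, with means of 6.09, 6.58, 8.23, 9.01 and 9.50, which is from percentile 11.5 to 90.1. Cacna1d had 3, with means of 6.17, 6.49 and 9.47, so that its low rank came from 2 probe sets while the other was at percentile 89.9. That probe set was between 8.59 and 9.95 on all 9 arrays and never overlapped with the first 2, whose highest value was 7.15. If each gene is read from its probe set of highest mean, Cacna1d moves from percentile 20.2 to 86.3 and Cacna1a from 63.4 to 85.8.

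The other members with several probe sets differed less. The gap between the highest and the lowest probe set mean was 1.81 for Cacnb2, 1.69 for Scn2b and 1.06 for Cacna1h, and from 0.04 to 0.86 for Cacnb1, Scn3b, Cacna1i, Cacna1c and Cacna1b. The median gap of the 10 members was 0.96 on the log2 scale, beside 1.54 in the 4525 genes with several probe sets, and 5 of 10 members had a gap over 1, beside 67.1% of those genes. Where on the transcript each probe set lies was not determined.

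**Figure D3:**
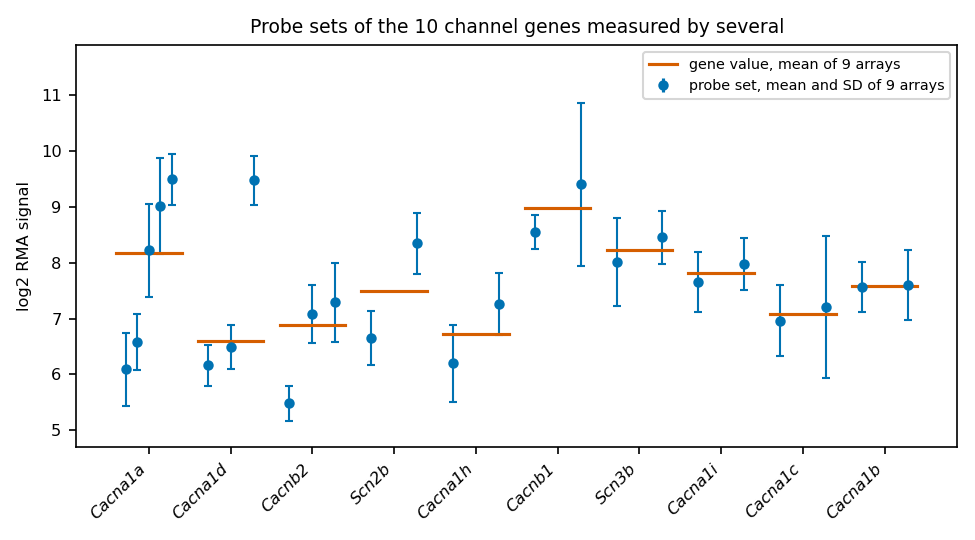
Mean and SD over 9 arrays of each probe set, as log2 RMA signal, for the 10 channel genes with more than 1. Orange bars are the gene values, the mean over arrays of the median probe set. The probe set means of Cacna1a and Cacna1d lie 3.41 and 3.31 apart, and those of Cacna1b lie together.

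The members varied somewhat more between arrays than genes did in general, with a median SD of 0.65 beside 0.55 over all genes. The SD was under 0.5 in 8 members and over 1 in 4, namely Scn7a, Scn4b, Cacna1s and Cacnb4. The extremes were not spread evenly over the arrays. Replicate 1 of 100 dendrites gave the highest value of 9 members (Scn10a, Cacnb3, Scn9a, Scn7a, Scn3a, Scn1a, Scn4a, Scn4b and Cacnb4), among them 6 of the 9 sodium pores, whereas 15.8% of all genes had their highest value there. It gave the lowest value of 3 members. Replicate 1 of 400 dendrites gave the highest value of 6 members and the lowest of 6, beside 18.8% and 15.1% of all genes. The mean of the sodium pores was 8.63 on replicate 1 of 100 dendrites and 7.47 to 8.07 on the other 8. Over the 31 members its mean correlation with the other arrays was the lowest, 0.67 beside 0.71 to 0.82. Over all probe sets the lowest mean correlation was that of replicate 1 of 400 dendrites, 0.75, with 0.78 for replicate 1 of 100. The amount by which a 3′ control probe set exceeds the 5′ one measures how complete the amplified RNA was. For GAPDH it ran from 0.84 to 2.99 on the log2 scale and was highest on replicate 1 of 100 dendrites, and for beta-actin it ran from -0.43 to 2.41, was 1.09 there and was highest on replicate 2 of 400. The part of RNA quality in these values was not tested.

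The pool sizes were compared with limma over all 14217 genes, with all 9 arrays in 1 fit, and p values were adjusted over all genes. With an adjusted p under 0.05, 0 of 31 members and 0% of genes were called for 400 against 100 dendrites, 200 against 100, 400 against 200, or the slope per doubling of dendrites. The members' smallest adjusted p was 0.999 for 400 against 100. At an unadjusted p under 0.05, 1 of 31 members passed for 400 against 100, where 2.41% of genes did, 1 for 200 against 100 (3.03% of genes), 0 for 400 against 200 (2.3% of genes) and 1 for the slope (2.73% of genes). These shares of members are near those of all genes.

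Hcn4 was the member that stood out between 400 and 100 dendrites. It had 6.34, 7.06 and 7.15 with 100 dendrites, 7.35, 6.60 and 7.42 with 200, and 7.87, 7.71 and 7.84 with 400. The 3 pools of 400 lay above all 6 others. The difference between 400 and 100 was 0.96 on the log2 scale (95% interval 0.13 to 1.79, limma adjusted p = 0.999), and the slope was 0.48 per doubling of dendrites (95% interval 0.08 to 0.88, limma adjusted p = 0.999), and for each the unadjusted p was under 0.05. Against 200 dendrites it was 0.69 (95% interval -0.14 to 1.52). Without replicate 1 of 100 dendrites, the array of the lowest value, the difference between 400 and 100 was 0.71, and its unadjusted p was no longer under 0.05, which was also so without replicate 1 or replicate 3 of 400. Of the other 2 HCN channels, Hcn3 differed by 0.07 and Hcn2 by -0.01 in that comparison. Hcn4 was the 1 member whose pools of 400 and 100 did not overlap, as in 6.25% of all genes. Its pools of 400 and 200 did not overlap either, as in 6.77% of all genes. The share of genes with both was not counted. Fibroblast markers had mean levels of 6.65, 9.46 and 7.64 in replicates 1, 2 and 3 of 400, and 7.48, 7.06 and 6.44 in those of 100. Of the 5 markers 4 were higher with 400, and 1, Col3a1, had an unadjusted limma p under 0.05 with a difference of 1.76. Their part in the values of Hcn4 was not tested.

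Cacna1c, the main L-type pore of heart and brain, had 6.69, 6.76 and 6.42 with 100 dendrites, 7.88, 8.07 and 7.39 with 200, and 8.02, 6.53 and 5.97 with 400. The pools of 200 all lay above those of 100, but the pools of 400 covered both. The difference between 200 and 100 was 1.16 (95% interval 0.08 to 2.23, limma adjusted p = 0.9999, unadjusted p under 0.05), and between 400 and 200 it was -0.94 (95% interval -2.02 to 0.14). The unadjusted p was no longer under 0.05 without any 1 of the 3 pools of 100, or without replicate 1 or 2 of 200. The difference came from 1 of its 2 probe sets, which gave 2.02 between 200 and 100 dendrites, while the other gave 0.29 with pools that overlapped.

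Scn2a and Scn1a had lower values with 200 dendrites than with 100. Scn2a, the channel of young axons and excitatory neurons, had 7.47, 7.23 and 7.05 with 100 dendrites, 6.38, 6.54 and 6.03 with 200, and 7.70, 6.18 and 7.69 with 400. The pools of 200 lay below all of those of 100, while 1 pool of 400 lay among them. The difference was -0.93 between 200 and 100 (95% interval -1.90 to 0.04) and 0.87 between 400 and 200 (95% interval -0.10 to 1.84). Scn1a had 8.45, 7.43 and 7.06 with 100 dendrites, 7.30, 6.21 and 6.93 with 200, and 7.70, 6.93 and 7.58 with 400, a difference of -0.83 between 200 and 100 (95% interval -1.83 to 0.17) that became -0.43 without replicate 1 of 100. The pools overlapped. With 200 dendrites 10 of 11 interneuron markers also had lower means than with 100, as did 7089 of 14217 genes. Of the 11, 3 had an unadjusted limma p under 0.05 there, where 3.03% of genes did. The markers' mean level was 6.78 to 7.18 on the arrays of 200 and 7.36 to 7.71 on those of 100. On those of 400 it was 7.39 to 7.55. Of these markers, Slc32a1 lay at percentile 8.85, Gad1 at 10.8 and Gad2 at 12.5, while 6 of the 11 lay above the middle gene. The part of interneuron material in the values of Cacna1c, Scn2a and Scn1a was not tested.

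Other members with the smallest unadjusted p values did not separate the pool sizes, and all of their intervals included 0. Scn8a had 7.43, 6.57 and 6.28 with 100 dendrites, 5.90, 7.00 and 7.16 with 200, and 7.38, 7.09 and 8.03 with 400, a difference of 0.74 between 400 and 100 (95% interval -0.28 to 1.76). Cacna2d3 had 9.29, 8.74 and 9.59 with 100 dendrites, 8.65, 9.10 and 7.67 with 200, and 7.90, 8.79 and 8.22 with 400, a difference of -0.90 between 400 and 100 (95% interval -1.89 to 0.08). Only replicate 2 of 400 dendrites rose above the lowest pool of 100. For Scn7a the same difference was -1.34 (95% interval -3.10 to 0.42), and its value ran from -2.36 to -0.79 as single arrays were left out, with -2.36 reached without replicate 2 of 100 dendrites.

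Scn3b and Cacna1a complete the members with small p values. Scn3b had 7.93, 7.72 and 8.17 with 100 dendrites, 8.00, 8.72 and 8.59 with 200, and 8.64, 8.10 and 8.23 with 400, a difference of 0.50 between 200 and 100 (95% interval -0.29 to 1.28). Its 2 probe sets went opposite ways. One had 7.51, 7.10 and 7.15 with 100 dendrites and 7.61, 8.92 and 9.22 with 200. The other had 8.35, 8.35 and 9.18 with 100 and 8.39, 8.53 and 7.96 with 200. Cacna1a had 7.22, 9.23 and 7.51 with 100 dendrites, 7.98, 9.13 and 9.24 with 200, and 7.47, 8.50 and 7.34 with 400, a difference of -1.01 between 400 and 200 (95% interval -2.27 to 0.25). From the probe set of highest mean of Cacna1a that difference was -0.46. Another of its 5 probe sets had 8.56, 9.35 and 9.24 with 200 dendrites and 10.60, 8.50 and 9.28 with 400. In both genes the ranges of the gene values overlapped between these pool sizes. Pools that did not overlap were found for Cacna1c and Scn2a between 200 and 100 dendrites, 2 of 31 members where 7.8% of all genes did so, and for Hcn4 and Cacnb4 between 400 and 200, again 2 of 31 where 6.77% did so.

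By role, the mean was lower with 400 than with 100 dendrites for all 4 calcium channel beta subunits, for both alpha2delta subunits and for all 3 CaV2 pores, and higher for 3 of 4 CaV1 pores, 2 of 3 CaV3 pores, 2 of 3 HCN channels, 2 of 3 sodium channel beta subunits and 3 of 9 sodium pores. Over all members 12 were higher and 19 lower, and 48.5% of all genes were lower. The median difference of the 31 members was -0.06, beside 0.02 over all genes. In the other comparisons 16 were higher and 15 lower for 200 against 100, and 14 higher and 17 lower for 400 against 200. None of these differences passed the test.

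The width of the intervals says how much the design could have missed. Between 2 pool sizes the half-width of the 95% interval was 1.06 on the log2 scale for the median member, from 0.74 for Hcn2 to 1.76 for Scn7a, and 0.99 over all genes. Intervals lying wholly within 1 log2 unit of no difference were found for 6 members between 400 and 100 dendrites (Cacna1d, Cacna1h, Cacna1i, Hcn2, Hcn3 and Scn2b), 4 between 200 and 100 and 5 between 400 and 200, beside 16.9%, 15.6% and 16.0% of all genes. Hcn2, Hcn3 and Cacna1d were among them in all 3 comparisons. For the other members the interval of at least 1 comparison reached beyond 1 log2 unit.

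**Figure D4:**
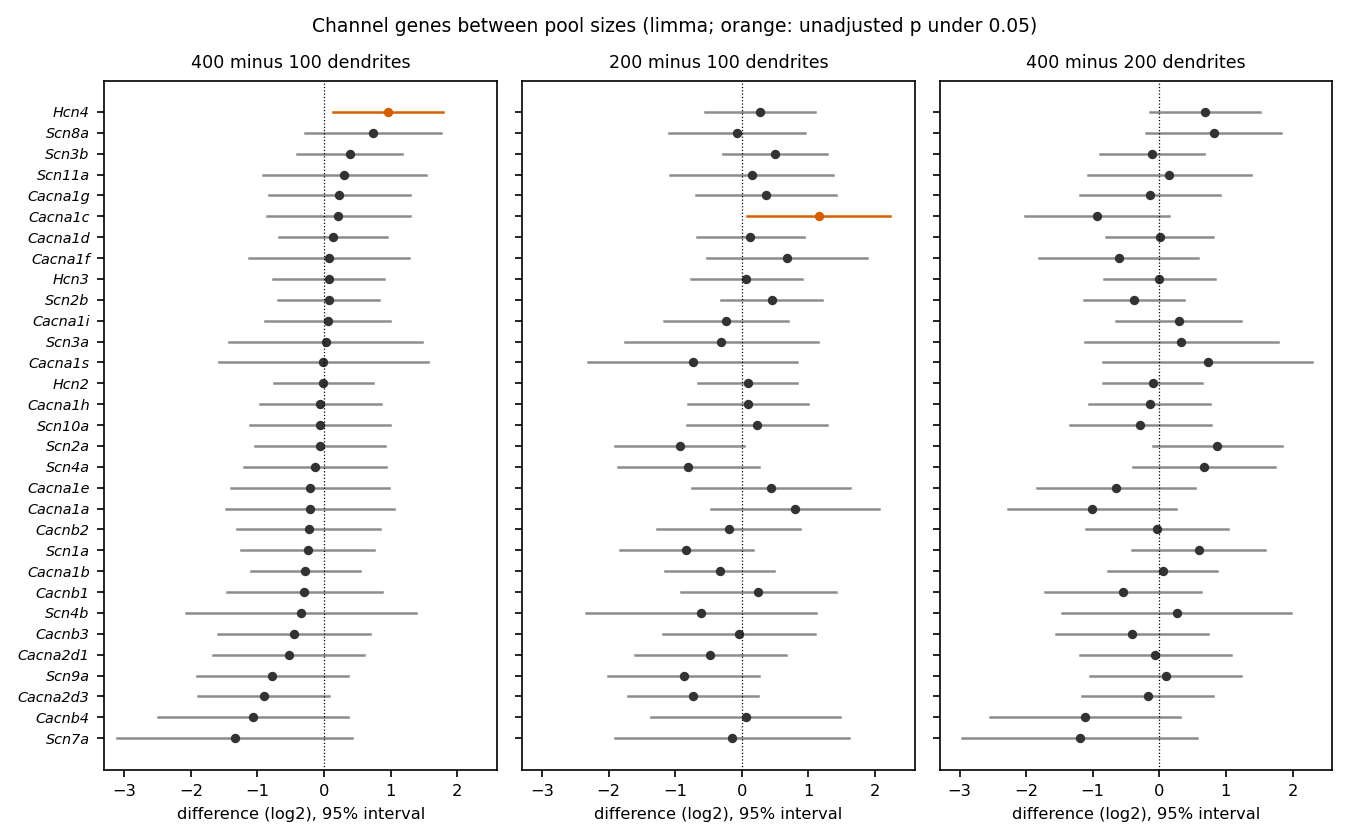
Differences in gene value between pool sizes for the 31 members, in log2 units, with 95% intervals from limma on 3 arrays per pool size. Orange marks an unadjusted p under 0.05, which Hcn4 reaches for 400 minus 100 dendrites and Cacna1c for 200 minus 100, and no member has an adjusted p under 0.05. Most intervals reach beyond 1 log2 unit on at least one side.

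The partners of these channels were read from a separate list of 49 genes, of which 45 were on the array. Their median percentile was 43.9, with 22 of 45 above the middle gene and 2 in the top 5%, the calmodulin gene Calm2 at 97.7 and the calcineurin catalytic subunit Ppp3ca at 96.7. Of proteins that anchor or bind sodium channels at the membrane, the ankyrin Ank2 lay at percentile 94.9 (10.38 ± 0.48), the contactin Cntn1 at 93.1 (9.64 ± 0.75), Nfasc at 80.6, Ank3, the ankyrin of the axon initial segment, at 71.4 (8.23 ± 0.46) and the spectrin Sptbn4 at 41.2. Of the intracellular factors that bind sodium channels, Fgf13 lay at 88.5 (9.23 ± 1.15), Fgf14 at 74.1 (8.37 ± 0.36), Fgf12 at 42.6 and Fgf11 at 18.3. Among the gamma subunits, most of which serve as AMPA receptor partners, Cacng7 was at 88.8 and Cacng3 at 5.66. Pex5l, which controls the trafficking of HCN channels in dendrites, was at 22.2 (6.56 ± 0.43). Of the 45 partners, 0 were called between 400 and 100 dendrites and 1 had an unadjusted p under 0.05, the release protein Stx1a, which differed by 1.17.

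Markers of the cells in the cultures were read on the same scale. Of the pyramidal neuron markers, 7 of 9 lay above the middle gene with a median percentile of 89.9, led by Neurod2 at 99.9, but Camk2a, an mRNA known from dendrites, was at 26.4 and Tbr1 at 1.39. Astrocyte markers had a median percentile of 77.1 and mean levels of 7.03 to 8.83 on the 9 arrays, with S100b at 91.1 and Aqp4 at 7.39, and the medians were 67.1 for oligodendrocyte, 52.6 for interneuron, 50.03 for endothelial, 31.4 for fibroblast and 24.5 for microglial markers. For 400 and 100 dendrites the astrocyte levels overlapped, 7.39 to 8.66 and 7.94 to 8.83. How far RNA of other cells enters the members' signals was not tested.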

How the data were processed

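RNA of the dendrites was amplified linearly and hybridised to 9 Affymetrix rat arrays. The authors summarised the scans with RMA 2.0, and the deposited table holds its log2 probe set signals, without the centring and scaling that their methods name. Array medians were 7.46 to 7.53. Of 31042 probe sets without controls, 20826 named 1 gene. Symbols were updated through Entrez IDs, and several probe sets of a gene were reduced to their median. limma 3.58.1 in R 4.3.3 fitted pool size as a factor over all 14217 genes, and two-sided p values were adjusted by Benjamini-Hochberg at 0.05. The fit was tested on simulated data. Values in every array are given for the 4 highest and 2 lowest members, the 3 of largest SD, and the 2 of smallest p in each direction of each comparison. Partners and markers were named after their values were seen. Members, lists and tests were chosen with earlier results of these data known. Promoter windows are from RefSeq. Alternatives were other normalizations, probe set rules, variance settings, a filter on low signal, the methods' t-test, a replicate block and single arrays left out.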

Additional observations from a re-analysis of the deposited data

How the results depend on the processing

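Over 17 alternative fits, 0 members and 0 genes had an adjusted p under 0.05 in limma or the other tests in any of the 4 comparisons. The members with an unadjusted p under 0.05 numbered 0 to 4. The 4 were found for 400 against 100 dendrites without replicate 2 of 100, where 471 of 14217 genes also had one. Without replicate 1 of 400, 0 members and 517 genes had one in that comparison. The 12 named differences kept their direction under each alternative that gave them a value, leave-one-out included, with 1 exception. The filter on low signal kept the genes of 4 of these differences. The exception was Scn3b between 200 and 100 dendrites, which was -0.33 when the probe set of highest mean stood for each gene. The 2 probe sets of Scn3b went opposite ways between these pool sizes. The number of members in the top 5% was 1 when a probe set of Cacna1h was counted as Cacna1g, a setting chosen after seeing the data. Members above the middle gene numbered 17 to 19, and their median percentile was 55.5 to 63.8. With the replicate block, 0 members were called. Same-numbered arrays did not pair: the correlations of their deviations from the pool means were -0.19 to 0.09 over 9 pairs, beside -0.19 to 0.22 over 18 pairs of different number. The limits are the 3 arrays per pool size, 1 probe set in 21 of 31 members, ranks of signal that are not amounts of RNA, and the lack of cell bodies or of other tissues for comparison.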
